A study of Mus musculus with 16 samples.

Results

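The response of macrophages to lipopolysaccharide (LPS) in cells that also received docosahexaenoyl serotonin (DHA5HT) was taken from 8 of the 16 arrays of the series. These were the 4 arrays titled LPS+DHA5HT and the 4 titled DHA5HT, and every gene measured was a member of the comparison. All arrays carried RNA of RAW264.7 cells, a transformed mouse macrophage line, after 24 h of exposure. The DHA5HT group received 1 µM of DHA5HT, a conjugate of docosahexaenoic acid with serotonin, and the LPS+DHA5HT group received the same dose together with 1 µg/ml of LPS. DHA5HT was therefore present in both groups, and the difference between them is called here the LPS response with DHA5HT. The other 8 arrays, 4 of vehicle control and 4 of LPS at 1 µg/ml with vehicle, gave the LPS response without DHA5HT. The 2 responses shared no array, and the question asked of them was how much of the LPS response is left when the conjugate is there. The labels name ethanol at 0.1% by volume for the control arrays, and no solvent is named for the DHA5HT groups. Separate cultures behind the 4 arrays of each group are not stated, and p values therefore speak of the spread among these samples, with a precision set by how few arrays there are. All RNA came from this 1 line.

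LPS is a component of the outer membrane of Gram-negative bacteria and is sensed by the receptor TLR4 with its partners MD-2 and CD14. The adaptor MyD88 leads from the receptor to NF-kB and AP-1, which switch on cytokines, chemokines and enzymes such as inducible nitric oxide synthase. The adaptors TRAM and TRIF lead to interferon regulatory factors and to interferon beta, which acts back on the cell through STAT proteins and raises the antiviral interferon-stimulated genes. RAW264.7 cells divide in culture and are a common model of this response.

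All values are log2 intensities from RMA, a change of 1 is a doubling, and errors are SE unless SD is named. Across 18820 genes the median SD within a group was 0.105 in the DHA5HT arrays and 0.115 in the LPS+DHA5HT arrays. Markers that macrophages should lack (19 genes of T cells, B cells and epithelial cells) had a median level of 3.64, and the median gene stood at 5.24. Where a group's mean lay below 3.64, the fold against it was computed from 3.64 and is written as at least that fold. Principal component analysis separated arrays with and without LPS on its first axis (70.6% of the variance). LPS+DHA5HT array 4 stood apart on the second axis (4.72%), with a score of 22.42 where the remaining 15 arrays had -10.02 to 9.356. LPS+DHA5HT array 1 had conflicting labels, with both agents in its title and only DHA5HT in its treatment label, and was grouped by title. For 136 genes that LPS without DHA5HT moved 4-fold or more, the level in each array was scaled so that control arrays average 0% and LPS arrays 100%. That array had a median position of 83.8%. The other LPS+DHA5HT arrays were at 90.8%, 88.0% and 78.5%, the last being array 4, and the DHA5HT arrays lay between -4.41% and -1.41%.

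With DHA5HT in both groups, LPS changed 5285 of 18820 genes (28.1%; limma, adjusted p under 0.05), of which 2333 rose (12.4%) and 2952 fell (15.7%). Most of these changes were small, since 4687 of the 5285 (88.7%) were under 2-fold. The large changes were mostly increases: 341 genes rose at least 2-fold (1.81%) and 257 fell as much (1.37%). At 8-fold or more the counts were 48 and 2, and 6 genes rose at least 64-fold. The arrays of the groups did not overlap for 5359 genes (28.5%), and 4662 of these were also past the threshold. Without LPS+DHA5HT array 1 the count was 5003 genes and without array 4 it was 4948.

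The largest increases were inflammatory cytokines, acute phase proteins and chemokines. Il6, the acute phase cytokine interleukin 6, stood at 2.96, 3.21, 2.83 and 3.17 in the DHA5HT arrays and at 10.21, 10.55, 10.46 and 10.16 in the LPS+DHA5HT arrays. The groups were far apart and no array strayed from its own group. The increase was 7.31 ± 0.10, at least 104-fold (adjusted p = 4.15e-18, limma). Il1a, interleukin 1 alpha, rose from 3.49, 2.93, 3.58 and 3.04 to 11.27, 11.55, 11.23 and 10.07, at least 167-fold, with LPS+DHA5HT array 4 the lowest of its group. Il1b, its secreted relative, rose from 4.21, 4.37, 4.81 and 4.49 to 12.04, 12.16, 12.25 and 11.62, a 187-fold increase. Again the lowest of the stimulated arrays was array 4. Lcn2, lipocalin 2, which withholds iron from bacteria, stood at 4.50, 5.38, 6.12 and 5.26 without LPS and at 12.92, 13.0, 12.91 and 13.01 with it. The spread lay almost wholly in the unstimulated arrays, and the increase was 7.65 ± 0.25. Saa3, an acute phase serum amyloid, rose from 3.73, 3.67, 4.26 and 4.19 to 11.42, 11.82, 11.54 and 11.15, 7.52 ± 0.14 on the log2 scale. These 5 genes and Ccl5 were the 6 that rose at least 64-fold. Ccl5, a chemokine for T cells and monocytes, went from 5.83, 6.25, 6.30 and 6.80 to 12.60, 12.68, 12.72 and 12.35, a 78.5-fold increase.

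The next genes in order of size were also secreted or antimicrobial proteins, with some regulators among them. Serpinb2, an inhibitor of plasminogen activators, stood at 3.87, 4.42, 4.23 and 4.10 without LPS and at 10.04, 10.35, 10.33 and 8.20 with it. Its LPS+DHA5HT array 4 lay far below the other stimulated arrays, and the increase was 5.57 ± 0.35. Gbp7, a guanylate-binding GTPase induced by interferon, rose from 5.19, 5.38, 5.58 and 5.55 to 10.47, 10.84, 10.69 and 10.61. Cp, the ferroxidase ceruloplasmin, rose by 5.01 ± 0.11, and Socs3, a feedback inhibitor of cytokine receptors, by 4.77 ± 0.14. Acod1, which makes the antibacterial metabolite itaconate, differed most between the unstimulated arrays, at 7.30, 7.86, 8.19 and 8.56, and little between the stimulated ones, at 12.69, 12.79, 12.73 and 12.63. Ccl7, a monocyte chemokine, rose by 4.72 ± 0.19. Marco, a scavenger receptor for bacteria, rose by 4.65 ± 0.20, and Csf2, the growth factor GM-CSF, by 4.60 ± 0.23. Cxcl10, an interferon-induced chemokine, stood at 6.58, 5.77, 6.70 and 6.37 in the DHA5HT arrays and at 10.99, 11.06, 11.28 and 10.43 in the LPS+DHA5HT arrays. In each of these 9 genes the lowest stimulated array lay above the highest unstimulated one, and the adjusted p values (limma) ran from 4.05e-16 to 1.88e-09.

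The 15 largest decreases included receptors, enzymes, transporters and signalling proteins. Cytip, a scaffold protein that restrains integrin adhesion, stood at 7.52, 7.21, 7.65 and 7.82 in the DHA5HT arrays and at 3.78, 3.56, 3.69 and 3.41 in the LPS+DHA5HT arrays. With LPS it reached the level of genes that macrophages should lack, a decrease of at least 15-fold (adjusted p = 5.35e-13, limma). Tgfbi, a matrix protein induced by TGF-beta, fell from 9.79, 9.46, 9.83 and 8.89 to 5.49, 5.76, 6.20 and 5.56, or 13.4-fold. Cx3cr1, the receptor for fractalkine, fell from 7.83, 7.29, 8.29 and 8.37 to 5.03, 4.99, 4.64 and 5.40, and Cxcr4, the receptor for CXCL12, from 9.78, 10.38, 9.49 and 10.03 to 6.96, 7.48, 6.75 and 7.60. These receptors varied by about 1 log2 unit within a group, less than the gap between the groups. Bcl6, a transcriptional repressor, was among the most even genes, with 8.72, 8.72, 8.75 and 8.72 against 6.48, 6.52, 6.49 and 6.53. Alox5, the first enzyme of leukotriene synthesis, was as even, with 9.35, 9.38, 9.40 and 9.39 against 7.24, 7.15, 7.32 and 7.26. The others of the 15 largest decreases were St8sia4, a polysialyltransferase (-2.54), Rgs2, a brake on G protein signalling (-2.18), Cd300lg, a membrane receptor (-2.17), Map2k6, a kinase upstream of p38 (-2.17), and Slc14a1, a urea transporter (-2.15). Rasgrp3, an activator of Ras (-2.12), Tlr5, the flagellin receptor (-2.06), Abcd2, a peroxisomal transporter (-2.05), and Gda, guanine deaminase (-2.01), completed them.

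**Figure D1:**
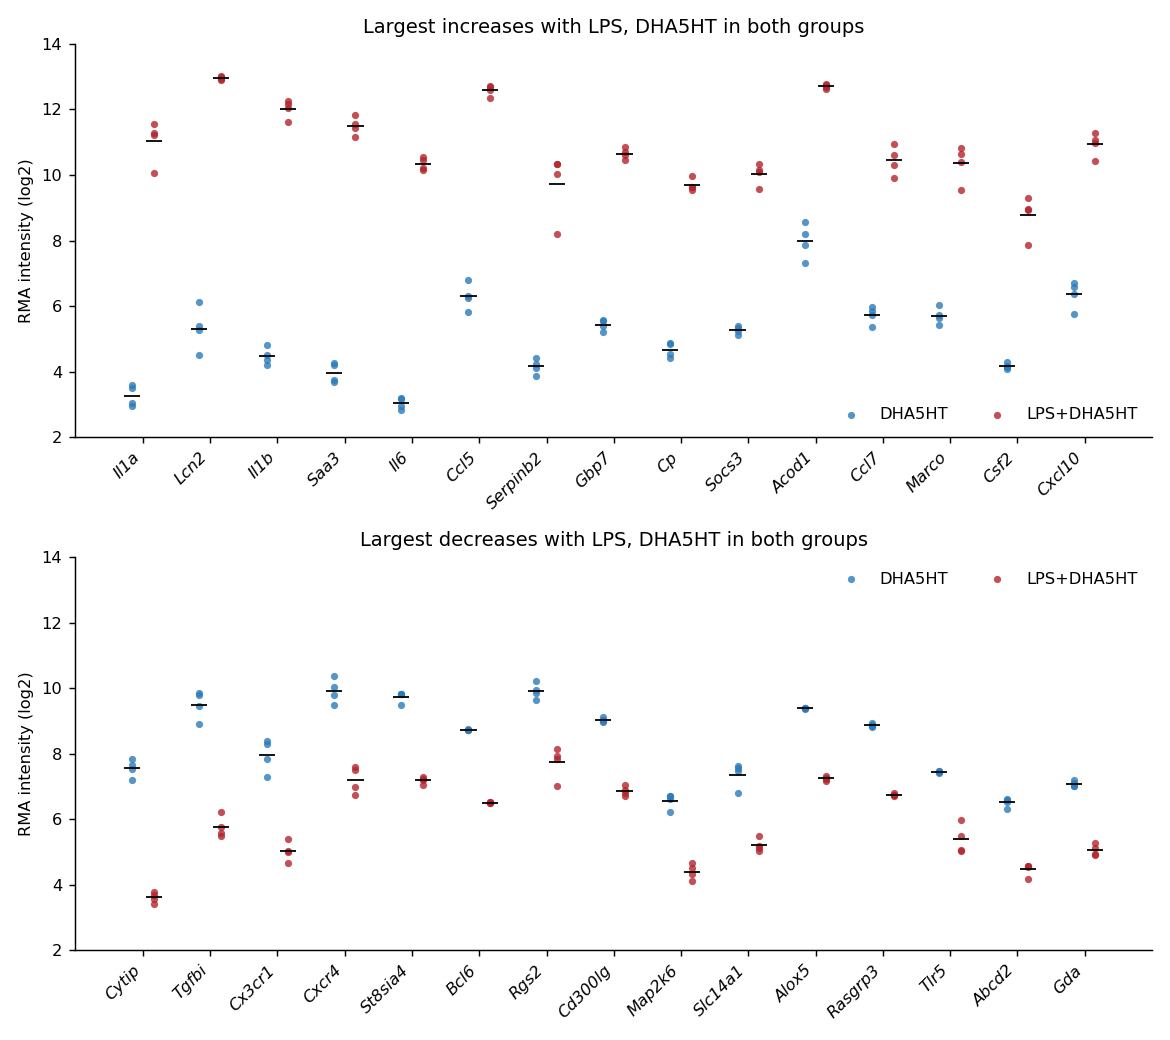
The 15 largest increases (top) and the 15 largest decreases (bottom) of the LPS response with DHA5HT, with genes on the x axis and RMA intensity (log2) on the y axis. Points are single arrays, 4 of DHA5HT (blue) and 4 of LPS+DHA5HT (red), and black bars are group means. No gene shown had overlapping groups, and LPS+DHA5HT array 4 at 8.20 is the low red point of Serpinb2.

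Gene lists by function show how the response was spread. A list is described by how many of its measured members rose or fell and by the median change of its members, which for all genes tested was -0.0044. Of all genes 12.4% rose, 15.7% fell and 28.5% had groups that did not overlap. The counts of every list are to be read beside these shares. Calls were more common at higher levels, and 5268 of the 9410 genes above the median gene passed when fitted alone. Changes at the receptor end of the pathway were modest in size. Of 18 measured genes of the TLR4 complex, its adaptors and kinases, 6 rose and 4 fell, with a median of 0.05. Ticam2, the adaptor TRAM, rose by 1.26 ± 0.13 and Ticam1, the adaptor TRIF, by 0.52 ± 0.081. Irak2, a kinase of the MyD88 arm, rose by 0.90 ± 0.072, Ikbke, a kinase upstream of the interferon regulatory factors, by 0.93 ± 0.074, and Cd14, the LPS co-receptor, by 0.44 ± 0.058. Tlr4 itself stood at 8.71, 9.05, 8.59 and 8.85 without LPS and at 8.33, 8.58, 8.26 and 8.69 with it, and those groups overlapped. Its decrease of 0.33 ± 0.11 had an adjusted p of 0.0268 (limma). Leaving out array 2 or 4 of the DHA5HT group or array 1 or 3 of the stimulated group ended the call (highest adjusted p 0.104, limma), and without any 1 of these the count of members that fell was 2. Between arrays of the same replicate number, the stimulated one was always the lower for Tlr4. With the replicate number added to the fit as a block, its adjusted p was 0.00198 (limma). Tab1, a partner of the kinase TAK1, fell by 0.51.

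NF-kB genes and the inhibitors that limit the pathway rose together with it. Among 13 NF-kB subunits, IkB proteins and kinases, 8 rose and 1 fell, with a median of 0.56. Nfkbiz, an IkB protein that works in the nucleus, stood at 7.04, 7.20, 7.26 and 7.37 without LPS and at 9.91, 10.15, 10.08 and 9.83 with it, a 6.85-fold increase. Nfkbia, the cytoplasmic inhibitor IkB alpha, rose by 1.44 ± 0.10, Bcl3 by 1.47 ± 0.077, Nfkbib by 1.09 ± 0.06 and the subunit Rel by 0.96 ± 0.068. Map3k14, the kinase of the alternative pathway, was the member that fell, by 0.51 ± 0.073. Of 21 feedback inhibitors, 13 rose and 3 fell, with a median of 1.09. After Socs3, the ribonuclease Zc3h12a rose most, by 2.58 ± 0.082. Irak3, which blocks the kinases of the MyD88 arm, stood at 9.62, 9.55, 9.93 and 9.80 without LPS and at 11.73, 11.90, 11.86 and 11.76 with it. Cish rose by 2.09 ± 0.12 and Zfp36, which destabilises cytokine mRNA, by 1.36 ± 0.065. Tnip3 fell by 0.44 and the deubiquitinase Cyld by 0.43.

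Of 16 JAK kinases, STATs and interferon regulatory factors, 7 rose and 3 fell, with a median of 0.13. Irf7, the regulator that amplifies interferon production, led them and is described with the interferon genes. Jak2 rose by 2.15 ± 0.09 and Stat3 by 0.53 ± 0.062, while Stat6 fell by 0.37 and Irf2 by 0.40. Among 17 immediate early and NR4A factors, 11 rose and 2 fell, with a median of 0.47. Nr4a1, an orphan nuclear receptor, stood at 4.48, 4.49, 4.49 and 5.01 in the DHA5HT arrays and at 7.96, 8.49, 8.49 and 7.38 in the LPS+DHA5HT arrays. Here too array 4 was the lowest of the stimulated arrays. Ier3 rose by 2.35 ± 0.20, Egr1 by 1.70 ± 0.18, Maff by 1.39 ± 0.13 and Junb by 1.17 ± 0.086. Jun fell by 0.34. The other member that fell, Jund (-0.19, adjusted p = 0.046, limma), lost its call without any 1 of the 8 arrays, so that the count of members that fell was then 1.

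**Figure D2:**
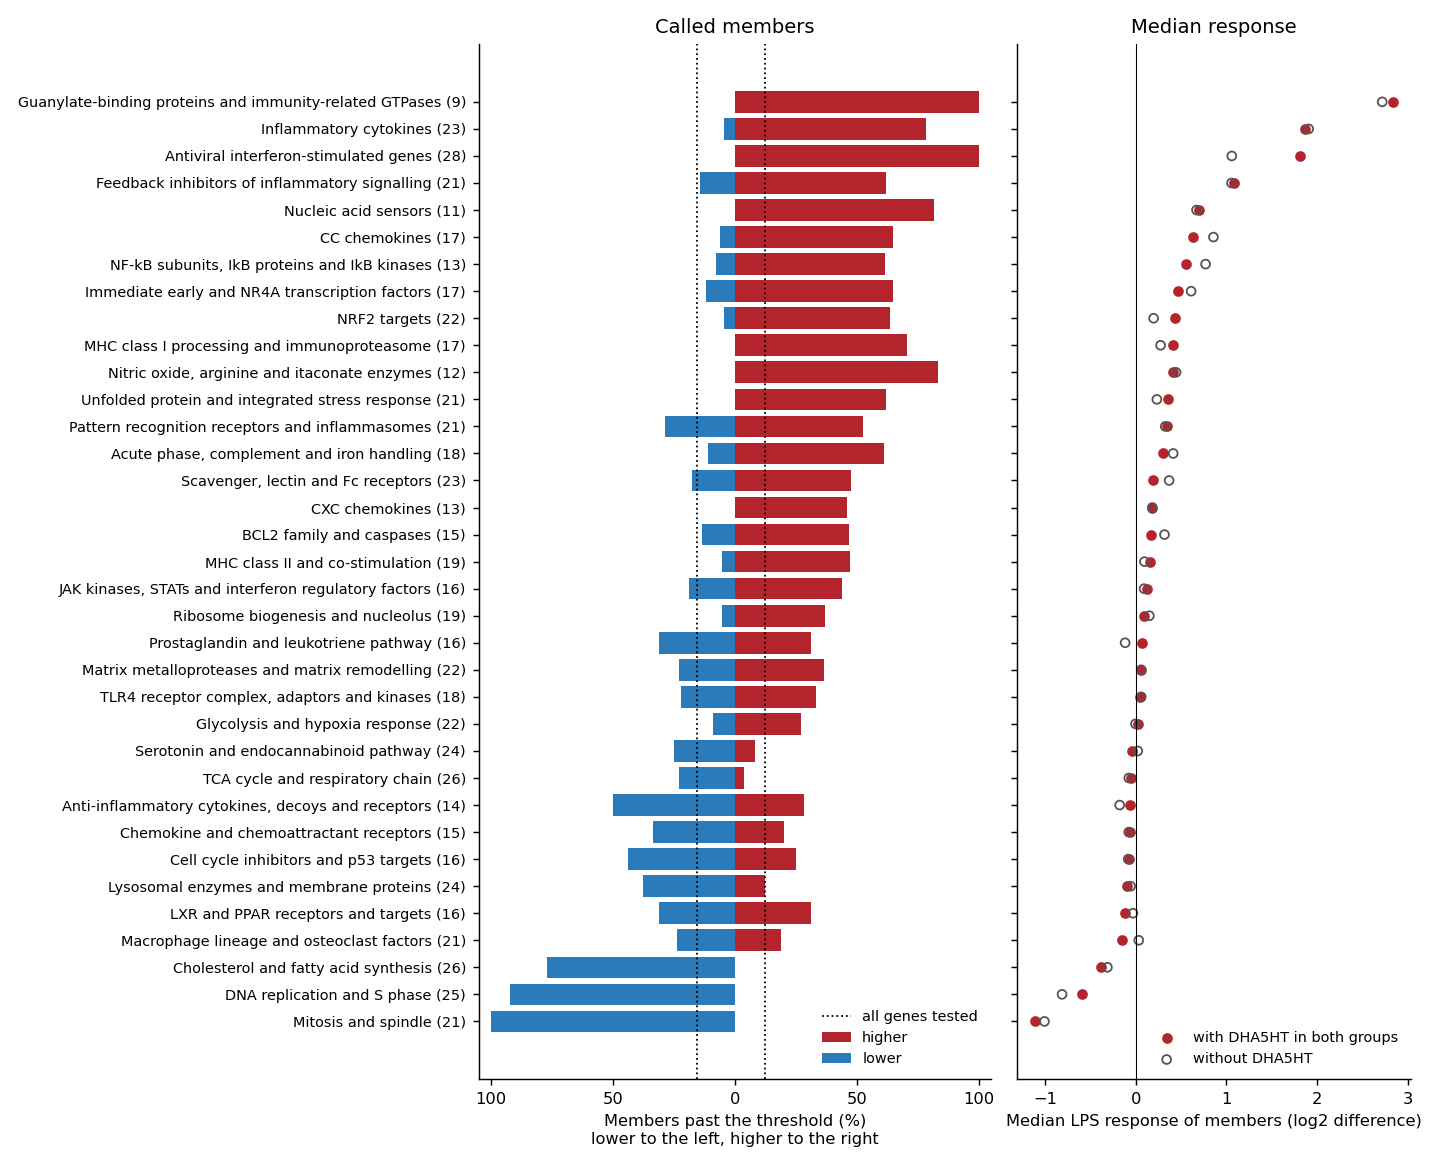
Gene lists ordered by their median LPS response with DHA5HT, with the number of measured members in brackets. Left, the percentage of members past the threshold, lower to the left and higher to the right, with dotted lines for all genes tested (15.7% and 12.4%). Right, the median log2 difference of members with DHA5HT in both groups (red) and without DHA5HT (open circles). Mitosis genes are at the bottom with a median of -1.11 and the guanylate-binding proteins at the top with 2.84.

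Inflammatory cytokines rose almost throughout the list. Of 23 measured, 18 rose and 1 fell, and the median change was 1.86. Besides the interleukins above, Csf3, the granulocyte growth factor, stood at 3.85, 4.08, 4.0 and 4.14 without LPS and at 8.08, 8.60, 8.76 and 7.37 with it, an increase of 4.18 ± 0.23. Il1f9, interleukin 36 gamma, went from 2.86, 3.37, 3.67 and 3.39 to 7.0, 7.49, 7.14 and 6.94, at least 11.3-fold. Il23a, the p19 subunit of interleukin 23, stood at 4.45, 4.61, 4.65 and 4.61 without LPS and at 7.17, 7.78, 7.55 and 7.31 with it. Il12b, the p40 subunit shared by interleukins 12 and 23, stood at 4.09, 4.41, 4.54 and 4.34 without LPS and at 6.37, 7.04, 6.50 and 5.87 with it. Both subunits were clearly induced, with no overlap between groups, and both are taken up again below because their response differed from that without DHA5HT. Tnf, tumour necrosis factor, was already high without LPS, at 9.86, 9.86, 10.0 and 9.82, and reached 11.77, 11.94, 11.72 and 11.57, a 3.64-fold increase. Il15 was the member that fell, by 0.71 ± 0.15. Of 14 anti-inflammatory cytokines, decoys and receptors, 4 rose and 7 fell, with a median of -0.06. Il4ra rose by 2.09 ± 0.10, Il1rn, the natural antagonist of interleukin 1, by 1.95 ± 0.10 and the TNF receptor Tnfrsf1b by 1.79 ± 0.097. Tgfbr1, a TGF-beta receptor, fell by 0.70 and Il10rb by 0.57. Il10 was past the threshold with -0.55, but both group means, 3.52 and 2.98, lay below the 3.64 of genes that macrophages should lack.

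Chemokines rose while several chemokine receptors fell. Of 17 CC chemokines, 11 rose and 1 fell, with a median of 0.63. Ccl2, the main monocyte chemokine, stood at 9.04, 9.03, 8.95 and 8.59 without LPS and at 12.14, 12.19, 12.10 and 11.99 with it, a 9.22-fold increase. Ccl4 rose by 2.07 ± 0.08, and Ccl3, near the top of the intensity range already, from a mean of 12.33 to 13.24. Ccl24 was the member that fell (-0.37, adjusted p = 0.0394, limma), a call that ended when array 1, 2 or 3 of the DHA5HT group or array 3 or 4 of the stimulated group was left out (highest adjusted p 0.138, limma). Of 13 CXC chemokines, 6 rose and none of the rest was past the threshold, with a median of 0.18. Cxcl2, a neutrophil chemokine, stood at 6.70, 7.05, 7.52 and 6.94 without LPS and at 11.23, 11.71, 11.48 and 11.21 with it. Cxcl11 rose by 0.92 ± 0.17 and Cxcl16 by 0.29 ± 0.05. Of 15 chemoattractant receptors, 3 rose and 5 fell. The decoy receptor Ccrl2 rose by 2.50 ± 0.16 and Ccr2 by 0.41 ± 0.097. Besides Cx3cr1 and Cxcr4, Cxcr3 fell by 1.80 ± 0.12 and the sphingosine phosphate receptor S1pr1 by 1.23 ± 0.14.

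Interferon-stimulated genes rose throughout the list. All 28 measured antiviral members rose, with a median of 1.81, and their groups did not overlap in any case (28.5% of all genes did not). Isg15, a ubiquitin-like modifier, stood at 4.78, 4.72, 4.45 and 4.75 in the DHA5HT arrays and at 8.65, 9.32, 8.76 and 9.34 in the LPS+DHA5HT arrays, a 20.3-fold increase. Ifit1, which binds foreign RNA caps, stood at 3.93, 4.32, 4.18 and 4.20 without LPS and at 7.88, 8.39, 8.22 and 8.55 with it, a 17.2-fold increase. In both genes the arrays of a group lay close together. Rsad2, viperin, rose by 4.55 ± 0.15, Oasl1 by 3.73 ± 0.097 and Usp18, which removes ISG15 from proteins, by 3.38 ± 0.23. Irf7 stood at 6.43, 6.48, 6.74 and 7.16 without LPS and at 10.47, 10.88, 10.69 and 10.96 with it, a 16.5-fold increase. All 9 measured guanylate-binding proteins and immunity-related GTPases rose as well, 8 of them with no overlap between groups, and the median was 2.84. Gbp2 rose by 4.22 ± 0.15, Gbp3 by 3.65 ± 0.077, Gbp4 by 2.84 ± 0.14 and Gbp5, from below the level of absent genes, by at least 6.19-fold. Of 11 nucleic acid sensors, 9 rose and none fell: Zbp1 by 2.90 ± 0.12, Dhx58 by 2.21 ± 0.10, Ifih1 by 1.83 ± 0.094, and Ddx58, which encodes RIG-I, by 1.77 ± 0.13. Guanylate-binding proteins, Oas genes and class I genes have close relatives in the mouse genome, and array probes can read more than 1 of them.

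Promoters of a few genes that rose are shown, each of which holds a match to the motif marked in it. Each sequence is the RefSeq window of 300 bases on GRCm38.p6, 5′ to 3′ on the strand of the gene, from 250 bases before the annotated start. In Isg15 (chr4:156200769-156201068, minus strand), Ifit1 (chr19:34640639-34640938, plus strand) and Cxcl10 (chr5:92348840-92349139, minus strand), capitals mark each match to the interferon response element GAAANNGAAA on either strand. In Il6 (chr5:30012864-30013163, plus strand), capitals mark the match to the NF-kB consensus.
Isg15: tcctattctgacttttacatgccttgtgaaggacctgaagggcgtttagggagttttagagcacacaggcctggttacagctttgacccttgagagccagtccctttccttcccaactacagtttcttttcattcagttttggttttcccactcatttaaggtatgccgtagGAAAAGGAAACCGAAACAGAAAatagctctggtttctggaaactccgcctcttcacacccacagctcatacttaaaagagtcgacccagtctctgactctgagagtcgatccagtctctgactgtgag
Ifit1: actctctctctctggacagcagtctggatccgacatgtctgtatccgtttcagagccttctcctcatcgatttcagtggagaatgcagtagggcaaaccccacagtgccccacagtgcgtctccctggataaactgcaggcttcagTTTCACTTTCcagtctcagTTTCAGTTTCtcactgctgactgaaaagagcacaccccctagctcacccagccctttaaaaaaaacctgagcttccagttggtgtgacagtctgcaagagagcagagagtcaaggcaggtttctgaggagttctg
Cxcl10: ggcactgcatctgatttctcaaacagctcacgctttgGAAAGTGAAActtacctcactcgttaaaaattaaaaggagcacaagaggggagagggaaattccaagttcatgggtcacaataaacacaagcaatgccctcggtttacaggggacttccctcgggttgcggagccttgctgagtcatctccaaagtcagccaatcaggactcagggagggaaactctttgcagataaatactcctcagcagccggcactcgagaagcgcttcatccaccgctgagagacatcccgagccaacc
Il6: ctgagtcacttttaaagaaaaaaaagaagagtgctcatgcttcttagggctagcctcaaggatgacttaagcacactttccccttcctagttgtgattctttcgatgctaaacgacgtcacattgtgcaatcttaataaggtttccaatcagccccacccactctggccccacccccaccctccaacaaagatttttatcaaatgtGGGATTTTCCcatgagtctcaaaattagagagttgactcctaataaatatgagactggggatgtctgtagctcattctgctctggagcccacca
Isg15 held 3 matches that overlap in 1 run, Ifit1 held 2 and Cxcl10 held 1. Irf7 and Oasl2 rose as well, and their windows, which are not printed, held no interferon response element. Cxcl10 also held matches to the NF-kB consensus and to the AP-1 site (TGAGTCA or TGACTCA, each the reverse complement of the other), and its AP-1 match lies within a match to the antioxidant response element (TGACNNNGC). Il6 held an AP-1 match as well. A RefSeq window was given for 14739 of the 18820 genes. The interferon response element was found in 3.91% of them, in 14.5% of the windows of genes that rose at least 2-fold (38 of 262) and in 5.97% of those that fell as much (12 of 201). For the NF-kB consensus the shares were 11% of all windows, 17.6% of genes that rose and 6.97% of genes that fell. For the AP-1 site they were 5.28%, 14.1% and 5.97%, and for the E2F site (TTTCCCGC or TTTGGCGC) 2.61%, 1.53% and 5.97%. The antioxidant response element was found in 15.4% of all windows, 17.6% of genes that rose and 14.9% of genes that fell, and the CCAAT box in 41.9%, 38.9% and 49.8%. Both strands were searched, matches of different motifs can overlap, and a match is a description of these letters only.

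Antigen presentation was covered by 2 lists. Of 17 class I genes, 12 rose and none fell, with a median of 0.42. Tap1, the peptide transporter, rose by 1.23 ± 0.11, the non-classical H2-T23 by 1.27 ± 0.15 and the proteasome activator Psme2 by 0.90 ± 0.07. Of 19 class II and co-stimulation genes, 9 rose, 1 fell and 9 were not past the threshold. Cd40, the receptor for T cell help, stood at 6.08, 6.29, 6.42 and 6.51 without LPS and at 8.43, 8.43, 8.58 and 8.43 with it. Cd274, the inhibitory ligand PD-L1, rose by 2.76 ± 0.14, Cd86 by 1.78 ± 0.066, Cd80 by 1.72 ± 0.13 and Icosl by 1.41 ± 0.093. Cd83 was the member that fell, from a mean of 4.18 to 3.58, the latter below the 3.64 of genes that macrophages should lack.

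Pattern recognition receptors split. Of 21 measured, 11 rose and 6 fell. The inflammasome sensor Nlrp3 rose by 1.21 ± 0.082 and the peptidoglycan sensor Nod2 by 0.91 ± 0.072. Tlr5 stood at 7.48, 7.42, 7.42 and 7.46 without LPS and at 5.05, 5.02, 5.47 and 5.99 with it. The endosomal receptors Tlr8 and Tlr13, which sense microbial RNA, fell by 1.34 ± 0.10 and 1.23 ± 0.097. Scavenger, lectin and Fc receptors showed a like split, with 11 of 23 rising and 4 falling. Clec4n, the lectin Dectin-2, stood at 6.23, 6.62, 6.57 and 6.73 without LPS and at 9.61, 9.68, 9.91 and 9.56 with it, an 8.92-fold increase. Clec7a, the lectin Dectin-1, stood at 7.60, 7.11, 7.41 and 7.29 without LPS and at 5.70, 5.44, 5.31 and 5.32 with it, a 3.76-fold decrease. These relatives, which both bind fungal sugars, thus moved in opposite directions. Fcgr1 rose by 1.48 ± 0.093 and Fcgr2b by 0.70 ± 0.049, while Trem2, a lipid receptor, fell by 0.98 ± 0.10.

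Enzymes of nitric oxide, arginine and itaconate metabolism rose in 10 of 12 measured members and none fell, with a median of 0.41. Nos2, inducible nitric oxide synthase, stood at 3.98, 4.66, 4.85 and 5.28 without LPS and at 8.20, 8.90, 8.86 and 8.57 with it, a 15.4-fold increase. The arginine transporter Slc7a2 rose by 2.84 ± 0.14, Gch1, which supplies the cofactor of the synthase, by 1.32 ± 0.097 and Odc1, which starts polyamine synthesis, by 1.15 ± 0.072. The prostaglandin and leukotriene list divided, with 5 of 16 rising and 5 falling. Ptgs2, the inducible cyclooxygenase, stood at 8.91, 8.81, 9.48 and 9.65 without LPS and at 12.87, 12.92, 13.03 and 12.77 with it, a 12.9-fold increase. Ptges, which makes prostaglandin E2, rose by 1.20 ± 0.099 and its receptor Ptger2 by 1.60 ± 0.14. On the leukotriene side Alox5 fell 4.41-fold and Ltc4s, leukotriene C4 synthase, by 0.73 ± 0.12. On the prostaglandin side Hpgds, a prostaglandin D synthase, fell as well, by 0.86 ± 0.14.

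DHA5HT is an N-acyl amine, and 24 genes of serotonin and endocannabinoid biology were measured. Of these 2 rose and 6 fell, a share of 33.3% that is near the 28.1% of all genes. Gpr18, a receptor proposed to bind lipid amides, stood at 6.37, 6.39, 6.61 and 6.43 without LPS and at 8.92, 9.10, 9.06 and 8.87 with it, a 5.8-fold increase. Cnr2, the cannabinoid receptor of immune cells, stood at 6.75, 6.72, 6.40 and 6.67 without LPS and at 5.25, 5.55, 5.05 and 5.75 with it, a 2.36-fold decrease. Daglb, which makes 2-arachidonoylglycerol, fell by 1.21 ± 0.075, Naaa, a lysosomal hydrolase of N-acyl ethanolamines, by 0.75 ± 0.087 and Abhd12 by 0.61 ± 0.058. The median level of the list was 3.88 in the DHA5HT arrays, close to the 3.64 of genes that macrophages should lack.

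Among 18 genes of the acute phase, complement and iron handling, 11 rose and 2 fell. Besides Lcn2, Saa3 and Cp, the iron transporters Slc11a2 and Slc11a1 rose by 0.96 ± 0.065 and 0.45 ± 0.047. C1qc, a chain of complement C1q, fell by 1.02 ± 0.24. C1qa fell by 0.91 ± 0.29, with overlapping groups (7.93, 7.92, 8.13 and 7.13 against 7.01, 6.83, 7.46 and 6.17). The call of C1qa ended when array 1, 2 or 3 of the DHA5HT group or array 2 or 4 of the stimulated group was left out (highest adjusted p 0.101, limma), and the count of members that fell was 1 without DHA5HT array 1 or 2 or LPS+DHA5HT array 2. Between arrays of the same replicate number, the stimulated one was always the lower for C1qa. With the replicate number as a block, its adjusted p was 1.21e-06 (limma) and 4 members of the list fell.

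Genes of the oxidant response rose more often than they fell. Of 22 targets of NRF2, the factor that answers oxidants and electrophiles, 14 rose and 1 fell, with a median of 0.43. Slc7a11, the cystine importer, stood at 6.62, 7.02, 6.07 and 6.92 without LPS and at 10.30, 10.55, 10.70 and 10.64 with it, a 14.8-fold increase. Gclm, a subunit of the enzyme that starts glutathione synthesis, stood at 9.87, 10.14, 9.66 and 9.96 without LPS and at 10.76, 11.02, 10.78 and 11.51 with it, with LPS+DHA5HT array 4 the highest. Gsta3 rose by 1.40 ± 0.16, Blvrb by 0.86 ± 0.09 and Gsr by 0.53 ± 0.061. Osgin1 was the member that fell (-0.43), a call that ended when array 2 of the DHA5HT group or array 1 or 3 of the stimulated group was left out (highest adjusted p 0.0636, limma). In the list of the unfolded protein response and integrated stress, 13 of 21 genes rose and none fell, with a median of 0.35, and 1 fell when LPS+DHA5HT array 4 was left out. Dnajb9 rose by 1.10 ± 0.17, Ern1, the stress sensor IRE1, by 1.08 ± 0.088, Nupr1 by 1.08 ± 0.12 and Asns by 0.57 ± 0.086.

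Of 22 genes of glycolysis and the hypoxia response, 6 rose and 2 fell, or 36.4% against 28.1% of all genes, with a median of 0.03. These genes stood high, with a median level of 9.42 in the DHA5HT arrays. Of genes above the median gene, 5268 of 9410 passed, a larger share than in this list. Hk2, hexokinase 2, stood at 8.59, 8.41, 8.75 and 8.93 without LPS and at 9.82, 9.77, 9.98 and 9.54 with it, Pfkfb3 rose by 0.49 ± 0.088 and Hif1a by 0.40 ± 0.064. Pdk1 fell by 0.80 ± 0.091 and Bnip3 by 0.59 ± 0.16. After quantile normalization was applied again, 4 members fell. Of 26 genes of the tricarboxylic acid cycle and the respiratory chain, 1 rose and 6 fell, which at 26.9% is about the share of all genes. With a median level of 10.1 in the DHA5HT arrays, this list also had a smaller share than genes above the median gene. All changed by less than 2-fold, with Idh2 the furthest at -0.48 ± 0.063. The rise of Mdh2 (0.21) did not pass after quantile normalization (adjusted p = 0.0529, limma).

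Sterol and fatty acid synthesis fell as a group: 20 of 26 measured genes fell, none rose, and the median was -0.38. Hmgcs1, an early enzyme of cholesterol synthesis, stood at 10.10, 10.22, 10.08 and 10.37 without LPS and at 9.43, 9.74, 9.54 and 9.45 with it. The decreases were modest, with Acss2 the furthest at -0.82 ± 0.11. Hmgcs1 changed by -0.65 ± 0.079, and Nsdhl, Dhcr7 and Idi1, also of the cholesterol branch, by -0.46, -0.44 and -0.43. Of 16 LXR and PPAR receptors and targets, 5 rose and 5 fell. Ppard rose by 0.95 ± 0.088 and Mylip by 0.55 ± 0.069. Pparg fell by 0.83 ± 0.14, Cpt1a, the gate of mitochondrial fat oxidation, by 0.98 ± 0.10 and the cholesterol exporter Abcg1 by 0.44 ± 0.066. Without LPS+DHA5HT array 2 the members that rose were 3.

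The cell division genes fell together. All 21 measured genes of mitosis and the spindle fell, with a median of -1.11, and their groups did not overlap (28.5% of all genes did not). Ccnb2, cyclin B2, stood at 10.86, 10.74, 10.73 and 10.81 in the DHA5HT arrays and at 9.57, 8.67, 9.35 and 8.28 in the LPS+DHA5HT arrays, a 3.52-fold decrease. The unstimulated arrays lay close together, while arrays 2 and 4 of the stimulated group were lower than arrays 1 and 3. Cenpf, a kinetochore protein, had the same pattern, at 9.23, 9.14, 9.30 and 9.24 without LPS and 7.92, 7.31, 8.02 and 7.08 with it. Prc1 fell by 1.41 ± 0.15, Kif11 by 1.36 ± 0.13 and Cdc25c by 1.31 ± 0.13. Of 25 genes of DNA replication and S phase, 23 fell and none rose, with a median of -0.59. Tk1, thymidine kinase, fell by 1.22 ± 0.12, E2f2 by 0.81 ± 0.08, Rrm1 by 0.71 ± 0.089, E2f1 by 0.53 ± 0.069 and Pcna by 0.47 ± 0.052. In bulk RNA, fewer dividing cells and less of these transcripts per cell cannot be told apart. Cell cycle inhibitors and p53 targets did not move one way, with 4 of 16 rising and 7 falling. Gadd45a rose by 2.42 ± 0.19 and Gadd45b by 1.09 ± 0.076, Cdkn2c, an inhibitor of CDK4 and CDK6, fell by 1.99 ± 0.11 and Cdkn1b by 0.57 ± 0.063.

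Other housekeeping and lineage groups changed in part, and of all genes 12.4% rose and 15.7% fell. Of 19 genes of ribosome biogenesis, 7 rose and 1 fell, all by less than 2-fold, with Rrp9 at 0.67, Polr1b at 0.63 and Dkc1 at -0.31. Of 15 genes of the BCL2 family and caspases, 7 rose and 2 fell. The death receptor Fas rose by 1.40 ± 0.12, the necroptosis effector Mlkl by 1.27 ± 0.10 and the caspase inhibitor Cflar by 0.99 ± 0.062. Bcl2 fell by 0.76 ± 0.082 and Pmaip1, which encodes NOXA, by 0.80 ± 0.085. Of 24 lysosomal genes, 3 rose and 9 fell, with the regulator Tfeb at -0.95 ± 0.081. Of 22 genes of matrix remodelling, 8 rose and 5 fell. Mmp9, gelatinase B, stood at 7.88, 8.13, 8.53 and 8.42 without LPS and at 10.53, 10.63, 10.91 and 10.36 with it, a 5.15-fold increase, and Thbs1 rose by 2.08 ± 0.11. Plaur, the urokinase receptor, rose by 1.45 ± 0.062 while Plau, urokinase itself, fell by 1.14 ± 0.13. Of 21 lineage and osteoclast factors, 4 rose and 5 fell. Cebpb rose by 1.06 ± 0.074, and the osteoclast genes Nfatc1 and Dcstamp fell by 0.96 ± 0.064 and 1.34 ± 0.11. The lysosomal, ribosome biogenesis and lineage lists had median levels of 10.6, 10.1 and 7.67 in the DHA5HT arrays. Their shares past the threshold, 50%, 42.1% and 42.9%, were above the 28.1% of all genes. They were smaller than the share among genes above the median gene, of which 5268 of 9410 passed.

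The labelled cell type was checked on its markers. The 11 measured macrophage markers had a median level of 11.6 in the DHA5HT arrays and 11.8 in the LPS+DHA5HT arrays, with 4 past the threshold upward and 1 downward. Adgre1, which encodes F4/80, stood at 7.06, 7.16, 7.50 and 6.95 without LPS and at 10.75, 10.80, 10.99 and 10.39 with it, an 11.8-fold increase. The count of markers that fell was 4 after quantile normalization and 2 without LPS+DHA5HT array 4. None of the 5 B cell and 8 epithelial markers was past the threshold. Cd28, listed as a T cell marker, was high in these cells and stood at 9.08, 9.60, 8.74 and 9.34 without LPS and at 7.16, 7.74, 7.04 and 8.24 with it, whereas Cd3d, which defines T cells, had means of 3.88 and 4.11. Of the other lists, Camp (neutrophil), Cdh5 (endothelial) and Dcn (fibroblast) were past the threshold with 0.54, 0.24 and 0.30. The calls of Cdh5 and Cd3d were each lost without 6 or more of the 8 arrays in turn (adjusted p up to 0.149 and 0.186, limma). These 3 lists had medians of 3.53 to 4.14 in the DHA5HT arrays.

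Set beside the response without DHA5HT, the response with it had nearly the same extent. Without DHA5HT, LPS changed 5346 genes (28.4%), 2376 upward (12.6%) and 2970 downward (15.8%), with 363 at least 2-fold higher (1.93%) and 268 as much lower (1.42%). In both responses 4148 genes passed, which is 78.5% of the calls with DHA5HT and 77.6% of those without, and 4142 of them had the same direction. Both tests used the same estimate of each gene's spread, so the calls are not independent of each other. Across genes the differences correlated with r = 0.921 and rho = 0.722, over 18820 genes that are not independent replicates and with no array in common. Over the 359 genes that rose at least 2-fold in the mean of both responses, the median response with DHA5HT was 91% of that without (quartiles 78.6% and 105%). Over the 244 genes that fell as much it was 98.9% (quartiles 90.4% and 112%). Tnf rose by 1.86 with DHA5HT and 1.85 without, a difference of 0.015 ± 0.13, and Ccl2 by 3.21 and 2.99, a difference of 0.22 ± 0.15.

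The test of the difference itself, the response with DHA5HT minus that without, passed for 62 genes (0.329%; limma, adjusted p under 0.05), 31 higher (0.165%) and 31 lower (0.165%). Among them 53 rose in the response with DHA5HT, 2 fell and 7 were not past the threshold there. At an unadjusted p under 0.05 there were 1439 genes. The call was kept by 30 of the 62 whichever of the 16 arrays was left out. Of the 62, there remained 44, 40, 43 and 42 without control arrays 1 to 4, and 35, 42, 39 and 47 without DHA5HT arrays 1 to 4. There remained 36, 34, 39 and 42 without LPS arrays 1 to 4, and 50, 51, 52 and 39 without LPS+DHA5HT arrays 1 to 4. Genes named here from this test belong to the 30 unless it is said otherwise. Where a group mean lies below 3.64, as in the unstimulated groups of U90926, Nr4a3, Csn1s1, Il6 and Il1a, the size of the difference rests on values at background and is not exact.

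**Figure D3:**
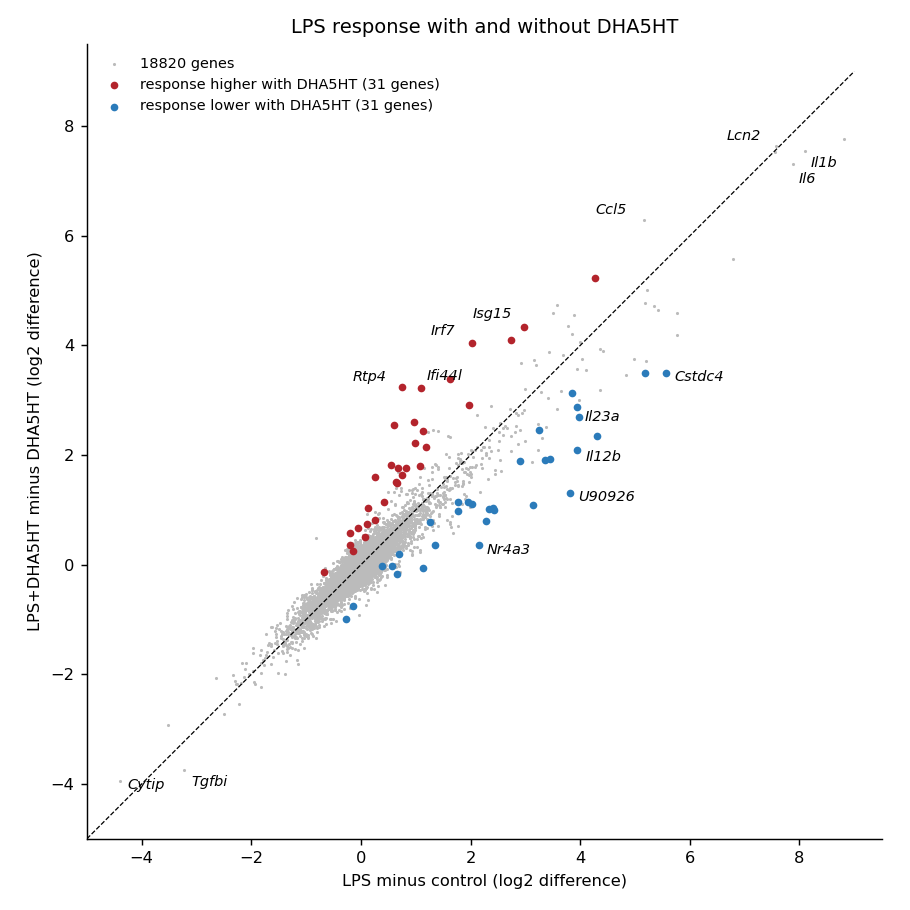
The LPS response without DHA5HT (x axis) and with DHA5HT in both groups (y axis), as log2 differences for 18820 genes. Red points are the 31 genes with a higher and blue points the 31 with a lower response with DHA5HT, grey points are the other genes, and the dashed line marks equal responses. Most genes lie along the line, with Rtp4 and Irf7 above it and U90926 and Nr4a3 below it.

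Of the 31 genes with a higher response, 13 belonged to the antiviral interferon-stimulated list. Irf7 stood at 8.61, 8.95, 8.70 and 9.38 in the control arrays and at 10.70, 10.95, 11.07 and 10.99 in the LPS arrays, beside 6.43, 6.48, 6.74 and 7.16 in the DHA5HT and 10.47, 10.88, 10.69 and 10.96 in the LPS+DHA5HT arrays. The stimulated groups lay together, at means of 10.93 and 10.75, while the unstimulated means were 8.91 without and 6.70 with DHA5HT. Its response was 4.04 with DHA5HT and 2.02 without, a difference of 2.03 ± 0.24 (adjusted p = 0.000884, limma). Rtp4, an interferon-induced inhibitor of viruses, had the largest difference, 2.49 ± 0.32. It stood at 7.40, 7.51, 7.50 and 7.94 in control and 8.26, 8.52, 8.13 and 8.46 in LPS arrays, against 4.59, 5.21, 4.65 and 5.77 in DHA5HT and 8.08, 8.37, 7.95 and 8.80 in LPS+DHA5HT arrays. Without DHA5HT it started higher and rose by 0.76, and with DHA5HT it rose by 3.24, to means of 8.34 and 8.30. Ifi44l rose by 3.22 with DHA5HT and by 1.09 without, with means of 7.05, 4.80, 8.14 and 8.03 in control, DHA5HT, LPS and LPS+DHA5HT. H2-T24, a non-classical class I gene, rose by 2.54 with DHA5HT and 0.61 without.

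The same order of levels was found in other antiviral genes. Oasl2 rose by 2.61 with DHA5HT and 0.97 without (difference 1.64 ± 0.23). Isg15 had means of 6.35 in control and 4.67 in DHA5HT arrays and ended at 9.33 and 9.02, a difference between responses of 1.37 ± 0.22. For Ifit1 the means were 5.85, 4.16, 8.58 and 8.26 in the same order, a difference of 1.37 ± 0.19. Each was lower with DHA5HT alone than in the control and near the LPS level after LPS. Oas2, an RNA-activated synthetase, rose by 1.60 with DHA5HT, while without it the difference of 0.26 was not past the threshold (control mean 8.43, LPS mean 8.69). The rest of the group kept in every leave-out were Xaf1 (1.31), Oas3 (1.26), Dhx58 (1.23), Ddx58 (1.10), Bst2 (0.97), which tethers virus particles, Gbp7 (0.96), Cmpk2 (0.95), Parp14 (0.94), Helz2 (0.72) and the nucleoside kinase Dck (0.55). Dck fell without DHA5HT, by 0.67, and was not past the threshold with it (-0.13, adjusted p = 0.131, limma).

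Over the 31 genes the median response was 1.77 with DHA5HT and 0.67 without. Their median level was 8.15 in control, 7.04 in DHA5HT, 8.86 in LPS and 8.75 in LPS+DHA5HT arrays. The DHA5HT mean minus the control mean ran from -2.53 to -0.07 with a median of -1.07, and the LPS+DHA5HT mean minus the LPS mean ran from -0.76 to 0.56 with a median of -0.10. Comparisons of this kind share arrays with the difference that chose the genes, so these values describe where the difference lay. Over all genes, 113 passed between DHA5HT and control (0.6%), 23 higher (0.122%) and 90 lower (0.478%). Between LPS+DHA5HT and LPS 337 passed (1.79%), 154 higher (0.818%) and 183 lower (0.972%). For Irf7, Rtp4 and Isg15 the DHA5HT mean minus the control mean was -2.21, -2.53 and -1.68, and the LPS+DHA5HT mean minus the LPS mean was -0.18, -0.042 and -0.31. Of the 28 antiviral interferon-stimulated genes, 13 were past the threshold upward in the difference and none downward, and 27 had a difference above 0 (48.5% of all genes had). Their median response was 1.81 with DHA5HT and 1.06 without. The interferon response element shown above was found in 9 of the 24 RefSeq windows of the 31 genes (37.5%) and in 1 of 25 windows of the 31 genes with a lower response (4.0%), against 3.91% of all windows. The 9 were Bst2, Ddx58, Gbp7, Ifit1, Isg15, Lgals9, Oas3, Slfn8 and Trim30a, of which Lgals9, Slfn8 and Trim30a lost their call in some leave-outs.

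**Figure D4:**
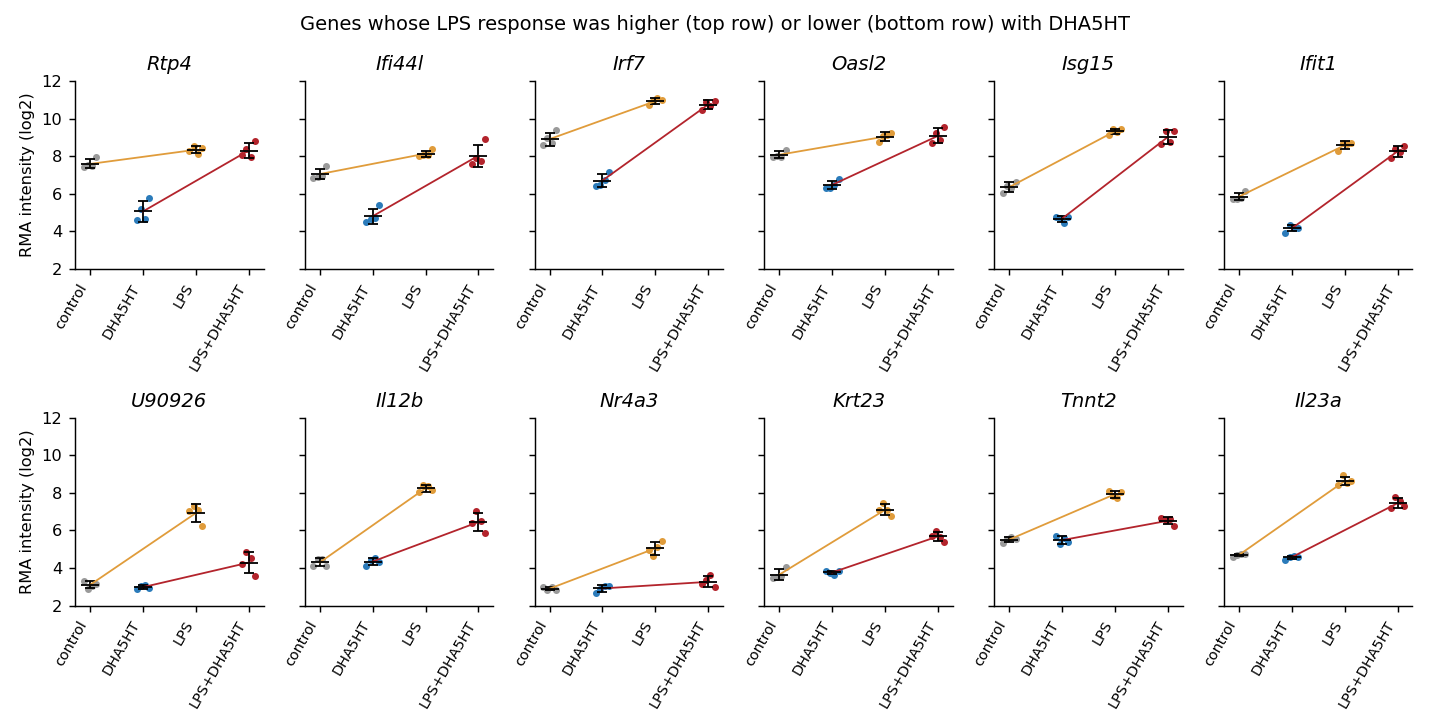
RMA intensity (log2, y axis) of 12 genes in the 4 groups (x axis), 4 arrays each as points with mean and SD in black. Orange lines join control to LPS and red lines DHA5HT to LPS+DHA5HT. In the top row the red line starts lower and ends near the orange one, and in the bottom row both start together and the red line ends lower, as for Il12b at means of 6.45 and 8.25.

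The genes with a lower response were a mixed group that included cytokine subunits. Il12b stood at 4.11, 4.50, 4.47 and 4.12 in control and at 8.06, 8.42, 8.39 and 8.13 in LPS arrays, against 4.09, 4.41, 4.54 and 4.34 in DHA5HT and 6.37, 7.04, 6.50 and 5.87 in LPS+DHA5HT arrays. The unstimulated groups overlapped and every LPS+DHA5HT array lay below every LPS array. The response was 2.10 with DHA5HT and 3.95 without, a difference of -1.85 ± 0.26 (adjusted p = 0.00228, limma). Il23a behaved likewise, at 4.60, 4.68, 4.76 and 4.74 in control and 8.44, 8.93, 8.54 and 8.62 in LPS arrays, with responses of 2.87 and 3.94 and a difference of -1.06 ± 0.16 (adjusted p = 0.00542, limma). U90926, an RNA known from activated macrophages, had the largest difference, -2.51 ± 0.32. It stood at 7.04, 7.33, 7.07 and 6.26 in the LPS arrays and at 4.21, 4.86, 4.52 and 3.57 in the LPS+DHA5HT arrays, with both unstimulated groups below 3.64. Nr4a3, an orphan nuclear receptor, stood at 4.96, 4.63, 5.13 and 5.46 with LPS alone and at 3.12, 3.35, 3.62 and 2.97 with DHA5HT as well. With DHA5HT no increase was past the threshold and both group means were below 3.64 (0.35 ± 0.15, adjusted p = 0.101, limma). Without it the gene rose from a control mean of 2.90, also below that level, to 5.05.

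Several others were structural or secreted proteins. Krt23, a keratin, rose by 1.92 with DHA5HT and 3.45 without. Tnnt2, cardiac troponin T, rose by 1.03 and 2.42, with LPS arrays at 8.12, 7.81, 7.73 and 8.06 and LPS+DHA5HT arrays at 6.67, 6.57, 6.59 and 6.24. Both were measured well above the level of absent genes after LPS. Sprr2f, a cornified envelope protein, rose by 1.09 with DHA5HT and 3.14 without. Csn1s1, a casein, stood at a mean of 3.55 in LPS+DHA5HT and 5.10 in LPS arrays, and Acpp, an acid phosphatase, at 5.06 and 6.41. Pecam1, an adhesion molecule, stood at 4.72 and 5.54, and the transcript AI504432 at 3.76 and 4.80. Bcl2a1c, of a family of near-identical survival genes, rose by 3.14 with DHA5HT and 3.85 without. Over the 31 genes with a lower response the median was 1.09 with DHA5HT and 2.34 without. Their median level was 4.70 in control, 4.58 in DHA5HT, 7.27 in LPS and 6.23 in LPS+DHA5HT arrays. The DHA5HT mean minus the control mean ran from -0.16 to 0.72 with a median of 0.08, and the LPS+DHA5HT mean minus the LPS mean from -2.63 to 0.01 with a median of -1.10. Not all 31 genes followed that order, as the upper ends of these ranges show. Bcl2a1c was 1 that did not, with 0.44 (adjusted p = 0.00572, limma) and -0.27 (adjusted p = 0.0762, limma).

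Several strongly induced genes did not pass the test of the difference. Csf3 rose by 4.18 with DHA5HT and 5.76 without, a difference of -1.57 ± 0.33 (adjusted p = 0.0544, limma). For Nr4a1 it was -1.38 ± 0.30 (adjusted p = 0.0745, limma), for Il1a -1.04 ± 0.33 and for Il6 -0.58 ± 0.14. Nos2 had -0.42 ± 0.36 and Mmp9 -0.23 ± 0.23. In the other direction Ccl5 had 1.12 ± 0.25 (adjusted p = 0.0694, limma), Acod1 1.16 ± 0.31, Cxcl10 1.08 ± 0.26 and Ptgs2 0.77 ± 0.22. None of these 10 differences passed, and with SE of this size none of the 10 can be called alike either.

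By list, the median responses with and without DHA5HT were close in most groups, although the differences of members often leaned to 1 side. Inflammatory cytokines had a median of 1.86 with DHA5HT and 1.91 without, with 2 of 23 members past the threshold downward in the difference, Il12b and Il23a. The difference was below 0 in 16 of the 23 and above 0 in 7, with a median of -0.26 (51.5% of all genes were below 0). Mitosis genes had -1.11 and -1.01, and S phase genes -0.59 and -0.81, with no member of either past the threshold in the difference. The difference was below 0 in 18 of 21 mitosis genes and above 0 in 22 of 25 S phase genes. The median level of the mitosis list was 9.12, 8.66, 9.03 and 8.25 in the LPS+DHA5HT arrays. In the LPS arrays it was 9.02, 8.70, 8.95 and 8.86. LPS+DHA5HT arrays 1 and 3 thus lay above every LPS array, array 2 just below them and array 4 far below. Among immediate early and NR4A factors the difference was below 0 in 13 of 17. Members of a list share arrays, and such counts were not tested. Cholesterol and fatty acid synthesis had -0.38 and -0.31, with a difference below 0 in 20 of 26. NRF2 targets had 0.43 and 0.20, with 14 members past the threshold upward with DHA5HT and 8 without, and no member past it in the difference. For 20 of the 22 the difference was above 0. Class I genes had 0.42 and 0.27, and all 17 had a difference above 0, again with none past the threshold. Median levels of lists in single arrays show the spread behind this. The antiviral list stood at 6.64, 6.67, 6.66 and 6.88 in the DHA5HT arrays and at 8.66, 8.70, 8.50 and 9.09 in the LPS+DHA5HT arrays, with array 4 the highest. It stood at 7.66, 7.80, 7.79 and 8.02 in the control arrays, all above the DHA5HT arrays. The inflammatory cytokine list stood at 7.44, 7.89, 7.55 and 7.40 in the LPS+DHA5HT arrays, all below the LPS arrays at 8.06, 8.42, 8.39 and 8.38.

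**Figure D5:**
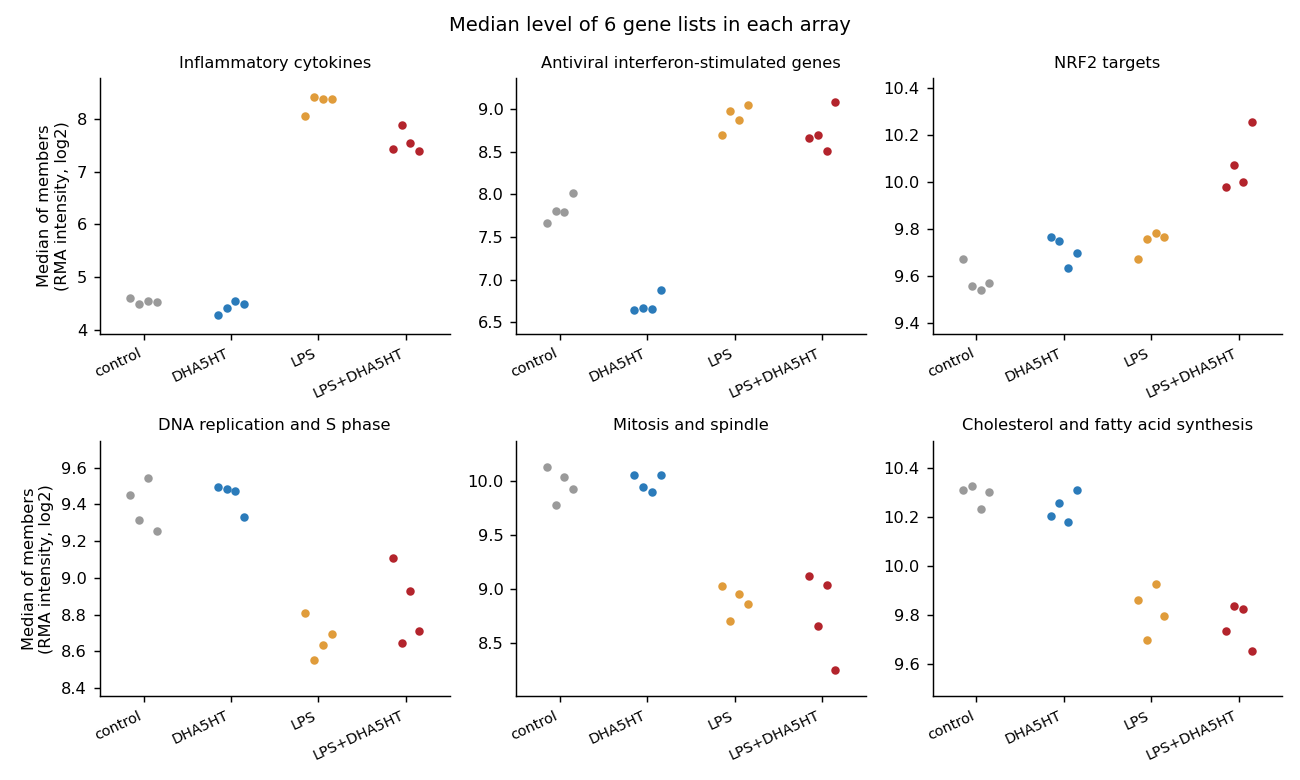
Median level of 6 gene lists in each of the 16 arrays (RMA intensity, log2, y axis, each panel on its own range that does not start at 0), grouped by condition on the x axis. Points are single arrays. The antiviral list is lowest in the DHA5HT arrays, from 6.64 to 6.88, and the mitosis list falls from between 9.90 and 10.05 in the DHA5HT arrays to between 8.25 and 9.12 in the LPS+DHA5HT arrays.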

How the data were processed

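Gene expression in 16 samples of RAW264.7 cells was measured on Affymetrix whole-transcript arrays, 4 per group. The deposited values are log2 intensities that the authors made with RMA, per the submitters' processing notes, and the version is not given in the sources used here. RMA subtracts background, applies quantile normalization and summarises probes, so that array medians are alike by construction (4.58 to 4.67) and low values are compressed. Of 35556 probe sets, 21218 name 1 gene in the platform annotation, 1881 name several and 12457 name none. The brightest probe set stood for each of 18820 genes, 1386 of which had several. The groups come from the sample titles.

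Differences were fitted with limma 3.58.1 in R 4.3.3 with a mean for each group and 1 spread shared by the 16 arrays (residual degrees of freedom 12), with Benjamini-Hochberg adjustment over all genes at 0.05. The response with DHA5HT is LPS+DHA5HT minus DHA5HT, that without is LPS minus control, and their difference was tested as an interaction. Named genes were the 15 largest changes in each direction, the 10 largest differences in each direction, up to 5 members per list by p and up to 3 against its direction, and a short set of known LPS targets; other genes past the threshold in the difference are named after their values were seen. The members and the 42 gene lists (786 genes, 705 used) were chosen with earlier results of these data known. Alternatives changed the normalization, filter, probe set rule, threshold, weights, trend, arrays and replicate block. Simulated data had independent noise and 200 of 18820 genes changed, in the LPS+DHA5HT group only. There the response test recovered 71% of changes of 0.5 and 100% of changes of 1, and the difference test 46% and 97%. These rates belong to that setting, as far more genes passed in the measured response. The number of arrays limits the precision.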

Additional observations from a re-analysis of the deposited data

Results flagged for a closer look

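The test of the difference between the responses marks 62 genes whose LPS response differed with and without DHA5HT (limma, adjusted p under 0.05, of 18820 genes). The values below are the log2 response with DHA5HT minus that without. Of the genes whose call was kept whichever of the 16 arrays was left out, those with a higher response were Rtp4 (2.49), Ifi44l (2.14), Irf7 (2.03), H2-T24 (1.94), Oasl2 (1.64), Isg15 (1.37), Ifit1 (1.37), Oas2 (1.34), Xaf1 (1.31), Oas3 (1.26), Dhx58 (1.23), Ddx58 (1.10), Bst2 (0.97), Gbp7 (0.96), Cmpk2 (0.95), Parp14 (0.94), Helz2 (0.72) and Dck (0.55). Those with a lower response were U90926 (-2.51), Sprr2f (-2.04), Il12b (-1.85), Nr4a3 (-1.80), Krt23 (-1.53), Csn1s1 (-1.50), Acpp (-1.43), Tnnt2 (-1.39), AI504432 (-1.18), Il23a (-1.06), Pecam1 (-0.99) and Bcl2a1c (-0.71).

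The other 32 lost their call without 1 or more arrays, with an adjusted p of at most 0.116 (limma). The higher ones were Usp18 (1.76), Slfn8 (0.89), Epsti1 (0.89), Lgals9 (0.86), Trim30a (0.83), Gbe1 (0.78), Ifi27l2a (0.72), Ifi35 (0.72), Irf9 (0.63), Parp12 (0.57), Olfr678 (0.56), Man1a (0.43) and Arntl (0.39). The lower ones were Cstdc4 (-2.07), Sprr2e (-1.96), Sprr2d (-1.69), Mmp13 (-1.45), Tnn (-1.33), Heatr9 (-1.28), Csta3 (-1.0), Ms4a6b (-0.92) and Abca1 (-0.82). They also included Rhou (-0.81), Ms4a6d (-0.79), Mmp25 (-0.79), Mrc1 (-0.72), Grap (-0.64), Bcl2 (-0.62), Bbc3 (-0.59), Tle3 (-0.51), Lyrm1 (-0.49) and Sla (-0.41). Sprr2d, Sprr2e and Sprr2f, Ms4a6b and Ms4a6d, and Cstdc4 and Csta3 are relatives that probes may share, which was not tested. They are therefore not to be counted as independent of each other. Csn1s1, Csta3, Heatr9, Mrc1, Nr4a3, Olfr678, Sprr2d, Sprr2e and U90926 have 1 or more group means below 3.64, the level of genes that macrophages should lack, and the sizes given for them are not exact. These genes, apart from those the report describes, are named after their values were seen.

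Relative to the range of its group, a single array stood apart from the other 3 in 22 of 436 groups (Dixon ratio). The groups checked were those of the genes described, and the share is near the 1 in 20 that chance gives. The ratio does not measure the size of the gap in log2 units, which was small in even groups such as that of Bcl6. In DHA5HT array 1 the genes marked were Ccl4 (9.71), Rrp9 (7.31) and Ticam1 (7.87). In DHA5HT array 2 these were Irf2 (8.80), Slc14a1 (6.78) and St8sia4 (9.48). In DHA5HT array 3 these were Asns (11.07), Bcl6 (8.75), Daglb (8.75), Irak2 (9.08) and Ticam2 (6.58). In DHA5HT array 4 these were Cxcl16 (10.27), Nr4a1 (5.01), Plau (8.85) and Tk1 (9.35). In LPS+DHA5HT array 1 it was Cd83 (3.32). In LPS+DHA5HT array 2 these were Abcd2 (4.17) and Gbp2 (9.61). In LPS+DHA5HT array 3 it was Cd40 (8.58). In LPS+DHA5HT array 4 these were Fcgr1 (10.51), Maff (5.33) and Serpinb2 (8.20).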

How the results depend on the processing

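No named gene past the threshold changed direction under the alternatives tried. The difference of Tnf, far from the threshold at 0.015, ran from -0.048 to 0.098 when single arrays were left out. For the response with DHA5HT, 5285 genes passed, and the count stayed within 1.5 times of that under every alternative: 5430 with an intensity trend, 5268 of 9410 genes kept by the filter on low values, 5249 after quantile normalization again, 5266 with arrays centred, 5232 with probe sets averaged, 6807 over all probe sets, 5244 with array weights, 4823 on the 8 arrays alone and 3912 at an adjusted p under 0.01. Leaving out each array gave 4741 to 5003 genes, 2077 to 2229 higher and 2661 to 2800 lower, with 325 to 351 at least 2-fold higher and 232 to 282 at least 2-fold lower. Of the 279 named genes 272 passed, and 260 of these did so under every alternative in which they were tested, the filter on low values having kept 245 of the 272. The count of genes in the difference depended more on the settings. It was 62 as reported (31 higher, 31 lower) and 28 at an adjusted p under 0.01 (16 and 12) or over all probe sets (16 and 12 of 28), and with an intensity trend 51 were higher and 38 lower. Leaving out each array gave 34 to 62 genes, 18 to 33 higher and 13 to 40 lower, with 22 higher and 40 lower without LPS+DHA5HT array 2. Deviations of same-numbered DHA5HT and LPS+DHA5HT arrays correlated at 0.113, 0.0699, 0.232 and 0.127. Pairs were taken as such only if each exceeded 0.1, and the labels do not say what a number shares, so the numbers were not used as pairs. DHA5HT arrays 1, 3 and 4 correlated best with their own number and array 2 with LPS+DHA5HT array 4 (0.165). With the replicate number as a block, 5723 genes passed in the response and 96 in the difference (49 higher and 47 lower), with 60 of the 62 among them. The calls of C1qa and Tlr4, which single arrays can end, then had adjusted p values of 1.21e-06 and 0.00198 (limma). For other calls that single arrays can end, the blocked adjusted p was larger. It was 0.016 for Osgin1, 0.0205 for Ccl24, 0.0243 for Cdh5, 0.0412 for Cd3d and 0.044 for Jund (limma). Genes near the level of 3.64 have compressed differences, and a lack of calls there sets no limit.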
